A study of Mus musculus with 8 samples.

Results

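DUSP1, also called MKP-1, was followed on every spot of a muscle gene array that is annotated to it alone. The annotation names human genes and gives DUSP1 as Entrez gene 1843, RefSeq transcript NM_004417. It holds 1 of the 2922 genes measured and 2 of the 9984 spots, which are printed side by side and share a target. The gene was chosen by its scores on these 8 arrays, as an early response phosphatase, so those scores are described without a test.

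The RNA came from C2C12, a mouse myoblast line, so the human-annotated spots read the mouse counterpart or a related transcript. One set of cells, MBC, grew in medium taken from CAPAN-1 cells, an established pancreatic cancer line of human origin, for 14 h or 24 h. The control set, MBN, had control medium for 0 h, 14 h or 24 h. Growth medium was DMEM with glutamine and fetal bovine serum. The labels name no genetic change and say nothing of separate cultures. There were 4 comparisons, a pair at matched hours (MBC14 over MBN14; MBC24 over MBN24) and a pair against the start (MBC14 over MBN0; then MBC24 over MBN0). Each had 2 arrays, A carrying Cy5 on the MBC RNA and B carrying Cy3 on it. For array B of the MBC14 over MBN0 swap the labelling protocol and the dye field contradict each other, and the dye field was followed. The labels give arrays A and B of a comparison the same pair of groups with the dyes crossed, without saying whether the RNA extracts were the same. They were taken as a dye swap of 1 pair of extracts and counted as 1 replicate, so their SD is the spread between arrays and may be technical only. The comparisons also share groups, since each MBC group was set against a pair of references and MBN0 served at both hours.

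DUSP1 encodes a nuclear dual specificity phosphatase that removes phosphate from both the threonine and the tyrosine of active p38, JNK and ERK MAP kinases. Growth factors, stress and glucocorticoids induce it within a short time, and its RNA is short-lived because of AU-rich elements, so it serves as a brake on the signals that induce it. In myoblasts, MAP kinase activity takes part in the choice between proliferation and differentiation.

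The promoter of the mouse gene is shown because cyclic AMP response elements and E-boxes there are known to take part in the induction of Dusp1. These are the 250 bases before the start of transcription in RefSeq, at chr17:26508473-26508722 of GRCm38.p6, minus strand, written 5′ to 3′. Capitals mark a TGACG core, a full cyclic AMP response element, TGACGTCA, and a CACGTG E-box:
Dusp1 promoter: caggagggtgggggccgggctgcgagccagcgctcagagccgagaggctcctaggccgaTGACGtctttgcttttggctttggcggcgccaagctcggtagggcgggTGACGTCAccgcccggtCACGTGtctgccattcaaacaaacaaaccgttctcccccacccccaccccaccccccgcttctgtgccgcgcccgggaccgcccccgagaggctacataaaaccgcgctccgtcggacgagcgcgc

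Motifs were searched on both strands. TGACGTCA occurred once, from -143 to -136, and 1.55% of 32851 promoter windows of this length held it. The shorter core TGACG occurred 3 times, at -191 to -187 and on each strand within the full element, against 17.8% of windows with at least 1. CACGTG lay at -126 to -121 (6.02% of windows), and GGGCGG, the GC box, occurred 3 times (32.7% of windows). TATAAA, the AP-1 site TGANTCA, the NF-kB site and the full palindromic glucocorticoid response element were not among these letters. Of 20 measured immediate early genes with a mouse promoter of the same symbol, 11 held TGACG and 1, PPP1R15A, held TGACGTCA. Among 4 other dual specificity phosphatases with a promoter, DUSP5 and DUSP11 held TGACG and 0 held TGACGTCA. These matches describe the sequence, and no value below depends on them.

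The deposited value is a signed score per spot with no stated scale, so results are in score units after subtracting each array's median, and no fold changes are given. Array medians lay between -0.06 and 0.10 and SDs between 1.34 and 1.58. Scores were read in 2 ways, because the labels do not say whether a score is conditioned over control on every array or Cy5 over Cy3. In the conditioned-over-control reading both arrays stand as deposited. In the Cy5-over-Cy3 reading the sign of array B is turned. Across genes, arrays A and B correlated at -0.32, -0.28, -0.13 and -0.27 in the order of comparisons above. In the same order, 41.8%, 40.0%, 45.4% and 40.0% of genes had the same sign on both arrays, so opposed signs were somewhat more common. A score above 0 is taken as higher in conditioned medium, which is likely from the Test and Reference labels but not stated; if the ratio ran the other way, every sign would turn. Scanner intensities were not used here, so signal over background, the abundance of DUSP1 and the presence of myoblast transcripts could not be read from these scores.

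DUSP1 scored far from the other genes on most arrays, and its spots agreed closely. In MBC14 over MBN14 the spots read -2.80 and -2.98 on array A and -1.06 and -1.19 on array B. For MBC24 over MBN24 they read -4.80 and -4.57 on array A and -3.28 and -3.53 on array B. All 8 of these readings lay below 0, with the 24 h arrays lower than the 14 h array of the same letter.

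Against the 0 h control the arrays separated. In MBC14 over MBN0 the spots read -0.51 and 0.12 on array A, near 0, and 4.28 and 3.80 on array B. In MBC24 over MBN0 they read -2.97 and -2.95 on array A and 4.80 and 5.02 on array B. As deposited, the gene was thus below 0 on 6 arrays and above 0 on 2, both of them B arrays against MBN0. Among 2922 genes, DUSP1 was the rank 2 highest on array B of MBC24 over MBN0 and the rank 4 highest on array B of MBC14 over MBN0. It was the rank 7 lowest on array A of MBC24 over MBN24 and rank 32 on its array B. It was rank 34 from the lowest on array A of MBC24 over MBN0 and rank 43 on array A of MBC14 over MBN14. On array B of MBC14 over MBN14 it was only rank 388 from the lowest, and 28.3% of genes scored larger in size. Its score there, -1.12, lay within the central part of all genes on that array, -1.74 to 1.71. Array A of MBC14 over MBN0 gave rank 1294 from the lowest, with 85.1% of genes larger in size.

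**Figure D1:**
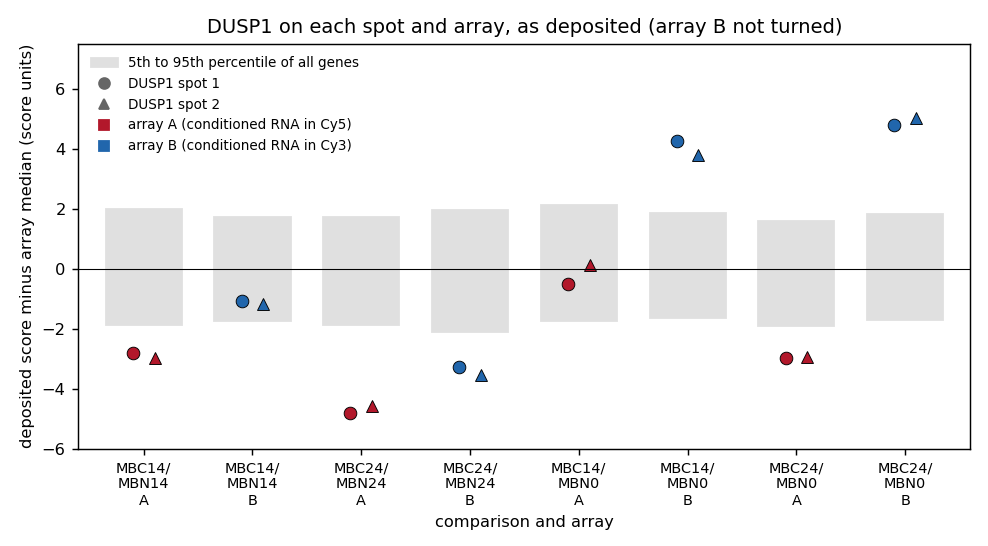
Deposited score minus the array median, in score units, for both DUSP1 spots on each of the 8 arrays; grey bars span the central part of all genes on that array, as its legend gives. The spots of an array lie close together, all 4 matched-hour arrays lie below 0, and the B arrays against MBN0 lie at about 4 and 5, above the grey bar.

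The DUSP1 spots lay closer together than most pairs on the array. The gap between the spots ran from 0.016 to 0.636 score units over the arrays, while the median gap of 3305 adjacent spot pairs of the same gene was 0.503 to 0.980. On all 8 arrays the DUSP1 gap was below that median, and 1.03% to 38.9% of pairs had a smaller one. Both spots had the same sign on 7 arrays, the exception being array A of MBC14 over MBN0. Spots printed side by side share a place on the slide. The 50 spots around them in printing order had medians from -0.92 to 0.96, and the 10 nearest from -0.54 to 0.91. The neighbouring gene SERPINA1 opposed DUSP1 on array A of MBC14 over MBN14 (1.75 and 1.17) but read close to it on array B (-0.90 and -1.12). On array B of MBC14 over MBN0 it read 2.08 and 2.59, the sign of DUSP1, and on array B of MBC24 over MBN0 0.08 and 0.11. The part of slide position in the DUSP1 scores was not tested beyond these values and the centring on neighbouring spots.

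Conditioned against control medium at the same hour gave a low DUSP1 score when the arrays were read as deposited. At 14 h array A gave -2.89 and array B -1.12, a mean of -2.01 ± 1.25 (SD, n = 2 arrays; every later ± is this SD unless marked SE). At 24 h array A gave -4.69 and array B -3.41, a mean of -4.05 ± 0.91. Both arrays lay below 0 at both hours, and no array overlapped 0. DUSP1 passed the size rule used here, a mean of at least 1 score unit in size with at least 0.5 in that direction on each array, as lower at both hours. These scores were known when the gene was chosen, so the shares of genes past the rule as lower, 2.81% at 14 h and 2.33% at 24 h, are given as background only.

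By mean score DUSP1 was rank 12 from the lowest at 14 h and rank 1 at 24 h. Its neighbours in that order at 14 h, the cardiac transcription factor TBX5 (-2.11 ± 2.75) and the spliceosome component SNRPE (-2.0 ± 3.75), had arrays that disagreed by more than their mean, so the order among them is within the error. At 24 h the next gene was the elongation factor ELOF1 at -3.42 ± 3.35. Over all 2922 genes, DUSP1 was the only one at or below -1 on all 4 matched-hour arrays as deposited, while 2 genes were at or above 1 on all 4. That limit was chosen after the DUSP1 values were seen, and its highest matched array, at -1.12, lies just past it.

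In the Cy5-over-Cy3 reading the same arrays cancelled. At 14 h array A gave -2.89 and turned array B 1.12, a mean of -0.88 ± 2.84. At 24 h they gave -4.69 and 3.41, a mean of -0.64 ± 5.72. The arrays lay on opposite sides of 0, the SD exceeded the mean, and DUSP1 did not pass the size rule at either hour. It ranked 480 and 768 from the lowest of 2922 genes. Past the rule as lower in this reading were 10.8% of genes at 14 h and 9.69% at 24 h.

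**Figure D2:**
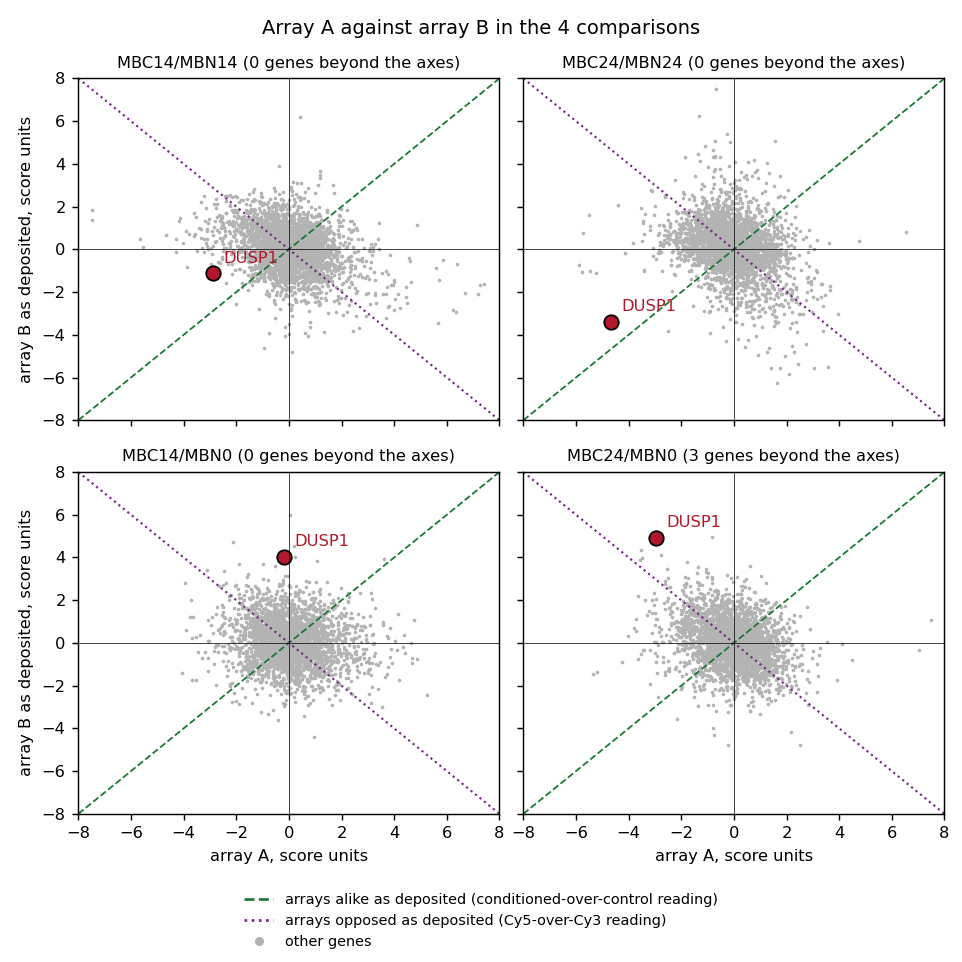
Score of each of the 2922 genes (grey) on array A (x axis) and on array B as deposited (y axis), in score units, in the 4 comparisons, with DUSP1 in red. DUSP1 lies near the dashed line of equal arrays in the matched-hour comparisons (-4.69 and -3.41 at 24 h) and near the dotted line of opposed arrays in MBC24 over MBN0 (-2.96 and 4.91).

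Conditioned medium against the 0 h control gave the opposite balance between the readings. In MBC14 over MBN0, array A gave -0.20 and array B 4.04 as deposited. The mean was 1.92 ± 3.0 in the conditioned-over-control reading and -2.12 ± 2.72 in the Cy5-over-Cy3 reading. On array A its spots lay on both sides of 0, so array B alone carried the score and the size rule was not passed in either reading, which 10.3% of genes passed conditioned over control (5.61% higher) and 15.7% Cy5 over Cy3 (7.29% higher). This is also the array whose labelling protocol contradicts its dye field; if the protocol were right, the Cy5-over-Cy3 mean would be the 1.92 of the other reading.

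In MBC24 over MBN0, array A gave -2.96 and array B 4.91. Read as conditioned over control the arrays were opposed and the mean was 0.98 ± 5.56, not past the size rule, which 6.84% of genes passed (3.11% higher). Read as Cy5 over Cy3 both arrays were low, at -2.96 and -4.91, and the mean of -3.93 ± 1.38 passed the size rule as lower. DUSP1 was then rank 2 from the lowest of 2922 genes, between ELOF1 (-3.94 ± 0.59) and the kinase MARK4 (-3.74 ± 0.23), neither of which differed from it by more than the SD. Past the rule as lower were 10.9% of genes. This comparison shares its MBC24 group with the matched one and is no independent support for it.

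The size of the score under each reading summarises the pattern. The conditioned-over-control mean was 2.27 times the Cy5-over-Cy3 mean in size at 14 h matched and 6.32 times at 24 h matched, but 0.907 times in MBC14 over MBN0 and 0.248 times in MBC24 over MBN0. Of 2922 genes, 171 (5.85%) shared this arrangement, larger as deposited in both matched comparisons and larger with array B turned in both comparisons with MBN0. Read as conditioned over control, DUSP1 had opposed arrays in both comparisons with MBN0, although array A of MBC14 over MBN0 was near 0. Read as Cy5 over Cy3, it had opposed arrays in both matched comparisons.

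The levels that these scores imply at each stage were set against MBN0 by subtracting A arrays from A arrays and B arrays from B arrays. Such levels are indirect and assume that scores add. Read as conditioned over control, DUSP1 stood highest in MBN24 (5.02 ± 4.66 over MBN0; arrays 1.73 and 8.32), then in MBN14 (3.93 ± 1.75; arrays 2.70 and 5.16), MBC14 (1.92 ± 3.0), MBC24 (0.98 ± 5.56) and MBN0. Control medium at both hours thus lay above 0 h on both arrays, at rank 3 and rank 5 from the highest of 2922 genes. The MBN14 and MBN24 scores passed the size rule as higher, as did 8.04% and 6.61% of genes.

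Between neighbours in that order, only MBC14 and MBN14 differed by more than the SD of the arrays (-2.01 ± 1.25). The steps from MBN24 to MBN14 (1.09 ± 2.91 for MBN24 over MBN14), from MBC14 to MBC24 (-0.95 ± 2.57) and from MBC24 to MBN0 (0.98 ± 5.56) were within it. The matched-hour score was lower at 24 h than at 14 h by 1.80 on array A and by 2.28 on array B, a mean difference of -2.04 ± 0.34. It passed the size rule as lower, as did 10.1% of genes, and DUSP1 was rank 82 from the lowest.

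Read as Cy5 over Cy3, the order was MBN0, MBN14 (-1.23 ± 5.56), MBC14 (-2.12 ± 2.72), MBN24 (-3.29 ± 7.10) and MBC24 (-3.93 ± 1.38), from highest to lowest. No step between neighbours exceeded its SD, with -1.23 ± 5.56 for MBN14 over MBN0, -0.88 ± 2.84 for MBC14 over MBN14, -1.18 ± 4.39 for MBN24 over MBC14 and -0.64 ± 5.72 for MBC24 over MBN24. Across longer steps, MBC24 over MBC14 gave -2.76 on array A and -0.87 on array B, a mean of -1.82 ± 1.34, past the size rule as lower with 8.69% of genes. MBN24 over MBN14 gave -0.97 and -3.15, a mean of -2.06 ± 1.55, also past it as lower, with 10.9% of genes. In this reading DUSP1 stood lower at 24 h than at 14 h in both media, and the matched score changed between the hours by 0.24 ± 2.88, within the SD. This order rests on the dye field of array B of the MBC14 over MBN0 swap. With the dyes of its labelling protocol, an alternative added after the data were seen, MBN14 lay above MBN0 by 2.81 ± 0.16 and MBC14 by 1.92 ± 3.0. MBN0 then lay below both 14 h groups and above MBN24 and MBC24, and the drop from 14 h to 24 h became -6.10 ± 7.26 in control and -5.86 ± 4.38 in conditioned medium.

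**Figure D3:**
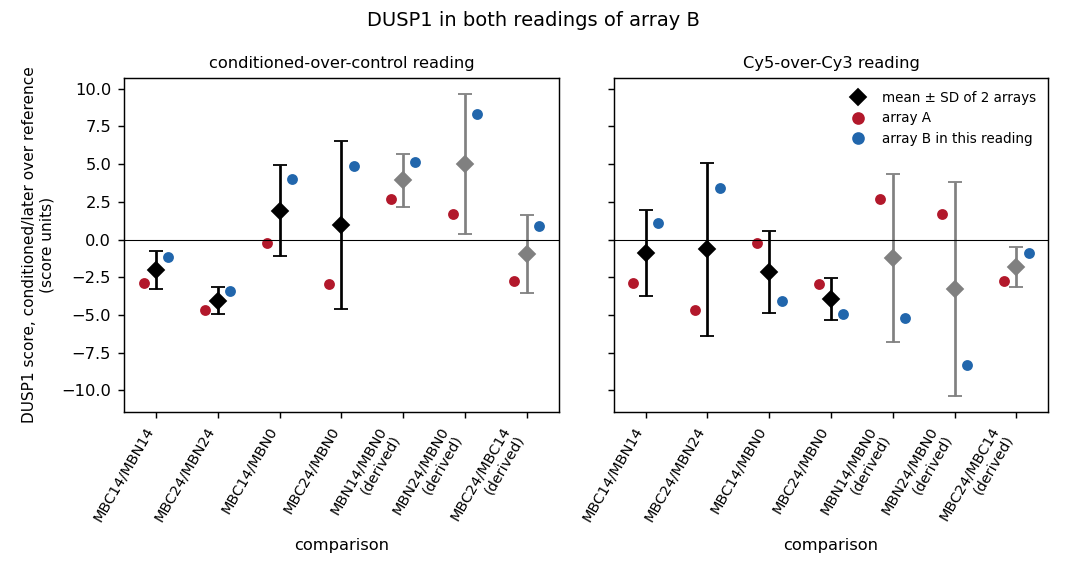
DUSP1 score in score units in the 4 measured comparisons (black) and 3 derived by subtraction (grey), with the conditioned-over-control reading on the left and the Cy5-over-Cy3 reading on the right; diamonds and bars are the mean ± SD of 2 arrays and circles are the arrays. The matched comparisons have tight low arrays on the left (-4.05 ± 0.91 at 24 h) and opposed arrays on the right, and MBC24 over MBN0 does the reverse (-3.93 ± 1.38 on the right).

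Genes with the most similar profile were looked for by uncentred correlation (cosine) with DUSP1 over the 8 array scores, a measure that is the same in both readings. It was taken over 1435 other genes whose root mean square score was at least 1. Arrays share groups and dye orientation, so this is a description over 8 points that are not independent. The nearest was RAB7A, a small GTPase of late endosomes, at 0.97, and then TRIOBP, an actin-binding protein, at 0.91. These 2 genes were the only ones above 0.9, and 19 were above 0.8.

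RAB7A had the sign of DUSP1 on all 8 arrays, with -2.69 on A and -0.59 on B at 14 h matched, -3.41 and -1.01 at 24 h matched, then -0.04 and 3.12 for MBC14 over MBN0 and -1.37 and 3.53 for MBC24 over MBN0. TRIOBP and WLS also had it on all 8, TRIOBP from -5.24 on array A of MBC24 over MBN24 to 4.94 on array B of MBC24 over MBN0. The others were WLS, which carries Wnt proteins to the cell surface (0.87), the mitochondrial immunophilin FKBP8 (0.87), the phosphatase PUDP (0.86), the membrane skeleton protein ANK1 (0.86), the growth factor binding protein IGFBP4 (0.85) and ELOF1 (0.85). FKBP8 shared the sign on 5 arrays, and its nearest spot lies 19 positions from those of DUSP1. The nearest spots of the other 7 lie 277 to 7421 positions away.

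**Figure D4:**
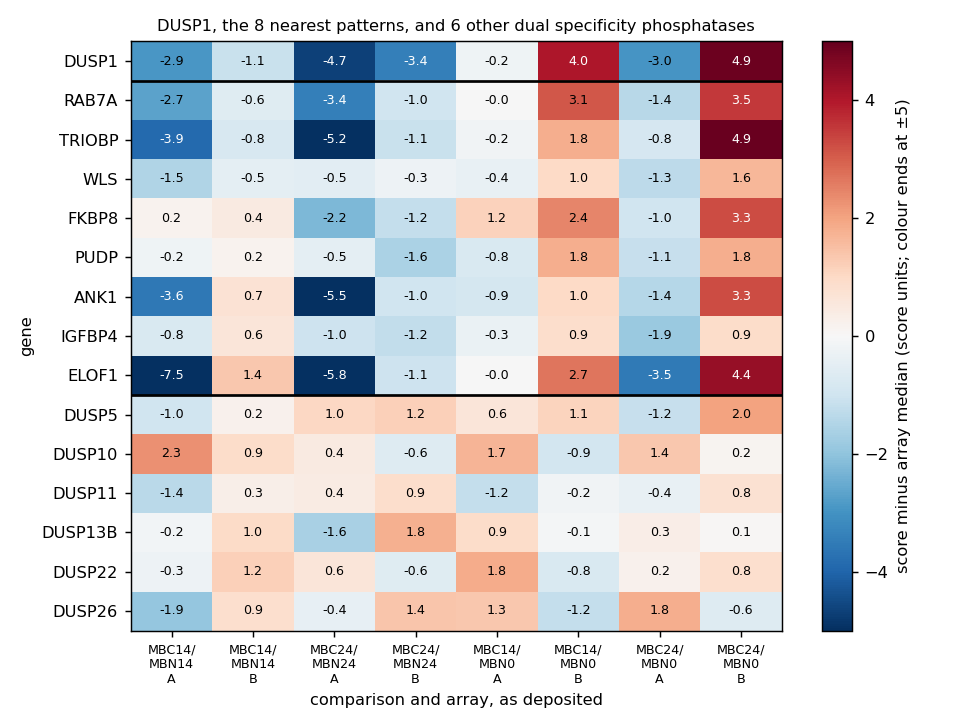
Scores in score units on the 8 arrays as deposited (columns) for DUSP1, the 8 genes with the most similar profile and 6 other dual specificity phosphatases (rows), with blue below 0, red above 0 and the colour scale ending at 5 in size. RAB7A, TRIOBP and WLS have the sign of DUSP1 on every array, and none of the 6 other phosphatases of the family has.

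The other dual specificity phosphatases on the array had profiles unlike that of DUSP1. The 6 measured were DUSP5, which acts on ERK in the nucleus, DUSP10, which acts on p38 and JNK, DUSP11, which acts on RNA, DUSP13B, DUSP22 and DUSP26. Their cosine with DUSP1 ran from -0.44 for DUSP10 to 0.37 for DUSP5, and their root mean square score from 0.80 to 1.30, against 3.40 for DUSP1, which was rank 9 from the highest of 2922 genes. In the conditioned-over-control reading DUSP10 gave 2.29 and 0.93 at 14 h matched, a mean of 1.61 ± 0.96, and DUSP5 gave 1.02 and 1.19 at 24 h matched, 1.10 ± 0.12. Both passed the size rule as higher, as 3.56% and 3.7% of genes did at these hours. In the Cy5-over-Cy3 reading DUSP5 gave -1.16 and -1.99 in MBC24 over MBN0 (-1.58 ± 0.59). It was past the rule as lower, as were DUSP1 and 10.9% of genes. DUSP13B passed the rule as lower at 24 h matched (-1.71 ± 0.10), as 9.69% of genes did. DUSP26 passed it as lower at 14 h matched (-1.39 ± 0.76), as 10.8% of genes did. The DUSP1 arrays were opposed at both hours. DUSP10, DUSP22 and DUSP26, 3 of 6, passed it as higher in MBC14 over MBN0 (1.30 ± 0.54, 1.30 ± 0.77 and 1.28 ± 0.10), against 7.29% of genes. That count rests on the dye field of array B of that swap. With the dyes of the labelling protocol their arrays would be opposed, at 1.68 and -0.91, 1.84 and -0.75, and 1.34 and -1.21. As deposited, the array B spots of DUSP10 read 0.28 and -2.10 there, and those of DUSP22 0.02 and -1.52. DUSP26 was also higher in MBC24 over MBN0 (1.22 ± 0.83), a direction for which the share of all genes is not given here.

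A shift common to both hours was fitted across all genes with limma on the mean of arrays A and B in each matched-hour comparison, since those comparisons share no group. Its p-values rest on the spread between 14 h and 24 h, which limma moderates with the spread of all genes. That spread may be technical, may also hold a change between the hours, and is not known to hold any spread between cultures. In the Cy5-over-Cy3 reading 152 genes (5.2%) were called at an adjusted p under 0.05, 3.08% higher and 2.12% lower, and 666 (22.8%) had an unadjusted p under 0.05. With the B arrays left out 128 were called, and with the A arrays left out 0. In the conditioned-over-control reading 0 genes (0%) were called in limma, with 91 (3.11%) at an unadjusted p under 0.05. DUSP1 was rank 2 from the lowest by its mean there and rank 510 in the Cy5-over-Cy3 reading. It gets no p-value of its own, since these contrasts served to choose it.

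Genes of the pathway around DUSP1 were then counted in that fit, first the family. Of the 6 other dual specificity phosphatases 0 were called in either reading, with a median of 0.23 conditioned over control and -0.44 Cy5 over Cy3, against medians of 0.02 and -0.05 over all genes. The first became -0.23 without the B arrays and 0.65 without the A arrays, and the second -0.12 after centring on 51 neighbouring spots. Among 14 other protein phosphatases 1 was higher and 1 lower in the Cy5-over-Cy3 reading, against 3.08% and 2.12% of all genes. PPP2CA, the catalytic subunit of protein phosphatase 2A, which also inactivates ERK, rose (3.68 ± 0.39, SE, adjusted p = 0.00249 in limma), and PTP4A1, a tyrosine phosphatase of growing cells, fell (-1.69 ± 0.40, SE, adjusted p = 0.0439 in limma). In the other reading they scored -0.60 and -0.92 and were not called. After centring on 11 neighbouring spots PPP2CA scored 0.89 and was not called (adjusted p = 0.318 in limma, the highest of 9 alternatives that reach down to 0.00056). Without the A arrays PTP4A1 scored -0.76 and was not called (adjusted p = 0.688 in limma, within a range of 0.00579 to 0.688 over the alternatives). The list median was -0.62, with 11 of 14 below 0, and -0.05 conditioned over control.

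The kinases that DUSP1 acts on and those that activate them showed no call. Of 13 genes of the MAP kinase cascade 0 were called in either reading, and their medians were 0.26 and 0.05 (conditioned over control, then Cy5 over Cy3, here and below). The p38 gamma kinase MAPK12 scored -0.49 and 0.05, the ERK activator MAP2K2 0.77 and 0.16, the RAF family kinase ARAF 0.85 and 0.95, and the RAF inhibitor PEBP1 0.78 and -0.69. Of 8 substrates and downstream kinases 0 were called, with medians of -0.01 and -0.10. STMN1, a microtubule regulator phosphorylated by MAP kinases, scored -0.27 and 1.14, and the muscle transcription factor MEF2C, a p38 target, 0.31 and -1.10.

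Early response genes went both ways. Of 27 measured, 0 were called in either reading, 14 were below 0 as conditioned over control and 15 as Cy5 over Cy3, and the list median was at 0 and at -0.15. The lowest in the conditioned-over-control reading was the growth factor HBEGF at -1.31, which came mostly from array B at 14 h (-3.92, against -0.77 on array A). By the size rule, as conditioned over control, 1 of 27 was lower and 1 higher at each matched hour, against 2.81% and 3.56% of genes at 14 h and 2.33% and 3.7% at 24 h. These genes, named after their values were seen, were HBEGF (lower) and ID3 (higher, 2.33 ± 1.57) at 14 h, and at 24 h the transcription factor EGR1 (lower) and IER5 (higher, 1.09 ± 0.10). EGR1 gave -1.13 and -2.89, a mean of -2.01 ± 1.25, low on both arrays where DUSP1 was low, but 2.13 and 0.33 at 14 h matched, where DUSP1 was low. In MBC24 over MBN0 as Cy5 over Cy3, 1 of 27 passed as lower and 3 as higher. EGR1 was lower (-1.35 ± 1.07) beside DUSP1, as 10.9% of genes were. Opposite to DUSP1, IER5 (2.11 ± 0.77), MCL1 (1.12 ± 0.06) and HBEGF (1.07 ± 0.32) were higher, a direction for which the share of all genes is not given here. DDIT3, a transcription factor of the stress response, scored 0.81 and 0.04, IER5 0.75 and 0.97 and PMAIP1 -0.66 and 0.97.

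Of 14 targets of the glucocorticoid receptor, which also induces DUSP1, 0 were called conditioned over control, with a median of 0.03. In the Cy5-over-Cy3 reading 2 of 14 rose and 0 fell, against 3.08% and 2.12% of all genes, with a median of 0.24 (0.06 without the A arrays and 0.48 without the B arrays): the muscle ubiquitin ligase TRIM63 (2.57 ± 0.40, SE, adjusted p = 0.00956 in limma) and glutamine synthetase, GLUL (2.01 ± 0.38, SE, adjusted p = 0.0221 in limma). After centring on 11 neighbouring spots TRIM63 scored 2.06 and GLUL 0.58, neither called (adjusted p = 0.177 and 0.477 in limma), and without the A arrays neither was called (adjusted p = 0.308 and 0.364 in limma). Over 9 alternatives TRIM63 was called in 7 and GLUL in 5. The metallothionein MT2A had the largest conditioned-over-control mean (1.06) and scored -0.79 as Cy5 over Cy3. Of 17 genes that bind RNA or take part in its decay, in general or at AU-rich elements (the AU-rich RNA list), 0 were called, with medians of 0.42 and 0.10. The AU-rich binding protein ELAVL1, which stabilises such RNA, scored 0.61 and -0.31, and HNRNPD 0.56 and -0.04.

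**Figure D5:**
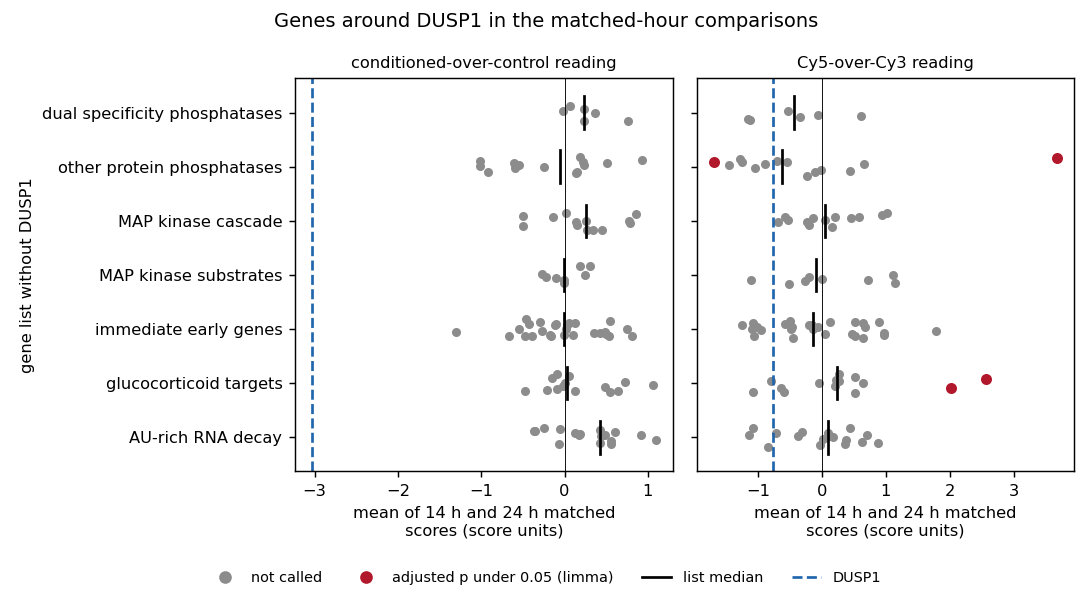
Mean of the 14 h and 24 h matched scores, in score units, of each gene in 7 lists without DUSP1, in the conditioned-over-control reading (left) and the Cy5-over-Cy3 reading (right); black bars are list medians, red points have an adjusted p under 0.05 in limma and the dashed line is DUSP1. Every list member lies above DUSP1 on the left, where the lowest is HBEGF at -1.31, and on the right DUSP1 lies among them at -0.76.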

How the data were processed

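The authors deposited 1 signed score per spot and array, for 8 arrays and 9984 spots with no missing value. Background correction, normalisation, log base and direction are not given in sources used here. Scores run from -23.57 to 24.79, so they cannot all be log2 ratios of 16-bit channels, whose size ends at 16. Each array was centred on its median, and spots with 1 gene symbol (6610; 106 list several genes, 3268 are unnamed here) were averaged to 2922 genes, by the platform annotation of 2016. Neighbouring spots were taken in the order of spot numbers, which is assumed to follow printing. Comparisons use the mean ± SD of the dye-swapped arrays. The matched-hour fit used limma 3.58.1 in R 4.3.3, two-sided, with Benjamini-Hochberg adjustment over all genes. On simulated data of 2922 genes, the fit in the Cy5-over-Cy3 reading called 6% of the genes given a shift of 1 score unit, 84% of those given 2 and 100% of those given 4, and 6 unshifted genes. Figures and tables used Python 3.11.15.

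DUSP1 and the gene lists were chosen with earlier results of these data known. Beside DUSP1 and its family, up to 5 members per list were named by the size of their conditioned-over-control mean, plus called members, the 8 nearest profiles and the neighbours in rank. No scanner intensity, probe sequence or protein sequence was used here, and the number of arrays limits the precision.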

Additional observations from a re-analysis of the deposited data

How the results depend on the processing

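The 8 DUSP1 means (4 comparisons in 2 readings) kept their sign under 7 alternatives that keep both arrays and the dye field (no centring, centring on 51 or 11 neighbouring spots, scaling by the median absolute deviation, quantile normalization, each spot alone), and none of the 56 values moved by more than the SD. That SD is wide where arrays were opposed (5.72 for MBC24 over MBN24 as Cy5 over Cy3), so staying within it says little there. The range was -4.33 to -3.76 for MBC24 over MBN24 and -2.08 to -1.87 for MBC14 over MBN14 as conditioned over control, and -4.34 to -2.92 for MBC24 over MBN0 as Cy5 over Cy3. With 1 array alone, DUSP1 read -2.89 to -1.12, -4.69 to -3.41, -0.20 to 4.04 and -2.96 to 4.91 as conditioned over control, and -2.89 to 1.12, -4.69 to 3.41, -4.04 to -0.20 and -4.91 to -2.96 as Cy5 over Cy3, in the order of comparisons used above. The 152 calls of the Cy5-over-Cy3 reading became 230 after quantile normalization (113 higher, 117 lower) and 2 after centring on 11 neighbouring spots, and ran from 0 to 128 with 1 array letter. Arrays entered singly with the array letter as a replicate block gave 28 calls there and 0 in the other reading, although arrays of a swap were counted as 1 replicate elsewhere. The letter marks a dye orientation, so it was not taken as a pairing. The deviations of A arrays correlated between comparisons at 0.03 to 0.53 as conditioned over control and -0.10 to 0.17 as Cy5 over Cy3. As conditioned over control they reached 0.53 between the matched-hour comparisons and 0.40 between those with MBN0. Arrays of a letter thus shared part of their scores in that reading. The conditioned-over-control calls ran from 0 to 128 with 1 letter and stayed at 0 in the other settings. With the dyes of the labelling protocol on its array B, added after the data were seen, the Cy5-over-Cy3 mean of MBC14 over MBN0 went from -2.12 to 1.92. List medians also changed sign: that of the family as given above, and that of the MAP kinase cascade in the Cy5-over-Cy3 reading from 0.05 to -0.11 without the A arrays. The median of the AU-rich RNA list in the Cy5-over-Cy3 reading went from 0.10 to -0.12 after centring on 51 spots and to -0.47 without the A arrays. That of the MAP kinase substrates in this reading went from -0.10 to 0.21 after centring on 11. Conditioned over control, the median of the other protein phosphatases went from -0.05 to 0.43 without the A arrays. These are examples, and further list medians changed sign. The causes were not tested.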

Other observations

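Metallothioneins, small metal-binding proteins that glucocorticoids and metals induce, are described here from the list of glucocorticoid targets. In the conditioned-over-control reading MT2A passed the size rule as higher in 3 of 4 comparisons (3.7%, 5.61% and 3.11% of genes did), with 1.2 and 1.91 on arrays A and B of MBC24 over MBN24, 1.88 and 2.12 for MBC14 over MBN0 and 2.28 and 0.99 for MBC24 over MBN0. At 14 h matched its arrays were opposed (-0.65 and 1.79). MT1X passed it in MBC24 over MBN24 (1.16 ± 0.18) and MBC14 over MBN0 (1.42 ± 0.63), but read -0.72 ± 0.04 in MBC24 over MBN0. MT1E passed it only at 14 h matched (1.15 ± 0.21, against 3.56% of genes), where the MT2A arrays were opposed. None was called in the matched-hour limma fit (adjusted p = 0.995 for MT2A), and in the Cy5-over-Cy3 reading MT2A passed the rule once, as lower at 14 h matched (-1.22 ± 0.81).

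Markers of cell types were counted in the same fit. Of 7 myoblast and muscle genes 0 were called in either reading, with scores from -0.999 (NCAM1) to 0.35 (MYOD1) conditioned over control and from -1.10 (MEF2C) to 1.13 (MYOD1) Cy5 over Cy3, and medians of 0.18 and -0.22. Of 3 epithelial genes 0 were called, and of 5 fibroblast genes 0. Of 9 blood genes 2 were higher and 1 lower in the Cy5-over-Cy3 reading, HBA2 (3.97), CD37 (3.28) and HLA-DRB1 (-2.25), against 3.08% and 2.12% of all genes, and 0 in the other. Without the A arrays none of the 3 was called (adjusted p = 0.319, 0.308 and 0.322 in limma), and HLA-DRB1, called in 5 of 9 alternatives, scored -1.39 without the B arrays and -1.23 after centring on 11 neighbouring spots. HBA2 and CD37 were called in 7 of 9 each. The part of other cell types in the DUSP1 scores was not tested.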
